A study of Mus musculus with 20 samples.

Results

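A set of 10 imprinted genes with known roles in growth, H19, Igf2, Cdkn1c, Dlk1, Meg3, Rian, Mirg, Peg3, Grb10 and Mest, were followed in cultured mouse myotubes. They were found by their mouse gene symbol in a count table of 26722 genes, and 8 of the 10 had an entry there. Total RNA was sequenced from C2C12 cells, an established mouse myoblast line, after 5 days of differentiation and 16 h of treatment, with 4 libraries for each of 5 treatments. All myotubes received an antibody at 7.7 nM. The control was b12, a human IgG4 used as the negative control antibody, and the second treatment was 13-3B5, a bivalent antibody that activates the muscle-specific kinase MuSK. The other treatments combined 0.1 nM neural agrin, the natural activator of MuSK, with b12, with the monovalent inhibiting antibody 13-3B5xb12, or with the monovalent inhibiting antibody 11-3F6xb12. The labels call the libraries of a treatment biological replicates numbered 1 to 4 and do not say what libraries with one number share. C2C12 is a single cell line, and the counts do not separate the maternal from the paternal copy of a gene.

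An imprinted gene is transcribed mainly from the copy inherited from one parent, under the control of DNA methylation laid down in the germ line. Imprinted genes sit in domains, in which a control region sets the expression of several neighbours, some from the maternal and some from the paternal chromosome. In skeletal muscle these genes are known for roles in fetal growth, in the exit of myoblasts from the cell cycle and in the state of muscle stem cells. The genes of the set fall into 6 such domains of the GRCm38 genome, placed with the GENCODE M21 annotation. H19 (chr7:142575529-142578143) and Igf2 (chr7:142650766-142666816) share a domain on distal chromosome 7, and Cdkn1c (chr7:143458339-143461050) lies in the adjoining Kcnq1 domain. Dlk1 (chr12:109452823-109463336), Meg3 (chr12:109541001-109571726), Rian (chr12:109603940-109661716) and Mirg (chr12:109729764-109749460) lie side by side on distal chromosome 12. Peg3 (chr7:6703892-6730431), Mest (chr6:30723547-30748465) and Grb10 (chr11:11930508-12038683) belong to separate domains.

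H19 and Mest also host microRNAs, whose mature sequences are shown because the hosts are among the genes with counts in every library. Sequences are from RefSeq on GRCm38.p6, 5′ to 3′, and the capitals mark the seed, bases 2 to 8. The 4 seeds differ from each other.
mmu-miR-675-5p (H19): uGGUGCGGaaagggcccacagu
mmu-miR-675-3p (H19): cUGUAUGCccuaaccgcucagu
mmu-miR-335-5p (Mest): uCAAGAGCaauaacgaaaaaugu
mmu-miR-335-3p (Mest): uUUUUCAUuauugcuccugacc
Mature microRNAs are shorter than the fragments of a total RNA library and were not measured. The microRNA gene Mir335 had counts in 1 of 20 libraries, and Mir675, which lies inside an H19 exon, had no entry.

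Promoter windows of 300 bases are shown for Peg3, its neighbour Zim1 and Mest, because the counts of these genes were lower in replicates 3 and 4 than in replicates 1 and 2. Each is 5′ to 3′ on the strand of the gene, from RefSeq on GRCm38.p6, and the capitals mark CG dinucleotides, the sites of DNA methylation. The window of Peg3 (chr7:6730370-6730669, minus strand) holds 13 CG dinucleotides, that of Zim1 (chr7:6696383-6696682, minus strand) 20 and the one shown for Mest (chr6:30737800-30738099, plus strand) 17. Mest has further entries that are not shown, at chr6:30733256-30733555 with 8 and at chr6:30737803-30738102 with 17.
Peg3: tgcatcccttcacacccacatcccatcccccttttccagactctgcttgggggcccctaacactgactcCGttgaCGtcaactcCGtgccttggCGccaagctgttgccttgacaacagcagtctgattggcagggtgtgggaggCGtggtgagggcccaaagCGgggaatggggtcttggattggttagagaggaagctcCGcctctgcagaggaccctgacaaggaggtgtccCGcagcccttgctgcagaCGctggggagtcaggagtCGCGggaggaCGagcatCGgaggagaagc
Zim1: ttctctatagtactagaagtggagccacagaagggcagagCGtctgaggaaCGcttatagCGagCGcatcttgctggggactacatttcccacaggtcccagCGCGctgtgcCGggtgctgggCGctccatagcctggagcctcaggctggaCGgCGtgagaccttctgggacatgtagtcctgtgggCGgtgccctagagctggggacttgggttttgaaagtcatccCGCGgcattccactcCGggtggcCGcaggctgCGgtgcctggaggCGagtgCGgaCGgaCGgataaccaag
Mest: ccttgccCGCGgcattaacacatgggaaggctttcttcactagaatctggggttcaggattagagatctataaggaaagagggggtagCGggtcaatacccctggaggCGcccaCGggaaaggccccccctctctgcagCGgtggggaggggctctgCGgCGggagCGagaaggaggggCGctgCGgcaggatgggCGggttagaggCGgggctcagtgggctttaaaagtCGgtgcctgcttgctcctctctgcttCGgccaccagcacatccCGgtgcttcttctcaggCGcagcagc
The median over 32851 promoter windows of the same table was 7. The motif GCCATNTT, read on both strands and known as a core of YY1 binding sites, was in none of these 3 windows and in 6.05% of all windows. The E-box CANNTG was in the Mest window and in 72.3% of all windows. RefSeq promoter entries matched 8 of the 10 genes, all but H19 and Cdkn1c. Cdkn1c was also lower in replicates 3 and 4, and no window could be shown for it.

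Library totals ranged from 18424881 to 23343903 counts. Levels are given as CPM, read counts put on one library size with factors from the trimmed mean of M-values, and 3 counts, taken as the limit of detection, correspond to between 0.129 and 0.163 CPM. This range reflects library size and scaling, and the limit itself covers counting error only. Markers of myotubes were abundant, with 12 markers summing to between 15700 and 20160 CPM per library. Of the libraries, agrin replicate 3 held 27.4 CPM of hepatocyte markers, with 1.04 CPM in the next, and agrin with 13-3B5xb12 replicate 1 and control replicate 2 held the largest sums of nuclear-retained RNAs, 9612 and 8626 CPM. The tests of single genes of the set were repeated without these 3 libraries, and results that changed are named below. For the ratios, correlations and similar patterns below, the 3 were not left out together. Values of other genes are from all libraries.

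The genes differed widely in level. Per kilobase of annotated exon, H19 averaged 1883 CPM over the 20 libraries, Peg3 24.2, Cdkn1c 1.15, Mest 0.525, Grb10 0.0447 and Meg3 0.0107. H19, a maternally expressed long noncoding RNA that restrains growth, stood above Tnnt3, a flanking fast troponin gene that averaged 912 CPM per kilobase. Meg3 and Rian are known for expression in muscle cells, and their counts in this table were low. Igf2 had 1 count in all, Rian 8 and Meg3 82, against 2027415 for H19. Dlk1 and Mirg had no entry and were not analysed here.

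H19 was counted between 71335 and 127333 times per library. In the control libraries it stood at 5187, 3312, 4428 and 5758 CPM in replicates 1 to 4. With 13-3B5 it stood at 4967, 4971, 4657 and 4262 CPM, and with agrin at 4654, 4706, 3989 and 4487 CPM. The control group held both the lowest and the highest library, and its range took in those of the other treatments. With agrin and 13-3B5xb12 the values were 4983, 4480, 4477 and 4705 CPM, and with agrin and 11-3F6xb12 they were 5039, 4795, 4428 and 4379 CPM.

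Peg3, a paternally expressed zinc finger protein of muscle and its stem cells, was the second most abundant, at 322.8 CPM on average. Control libraries held 338.5, 408.3, 298.0 and 311.0 CPM. Libraries with 13-3B5 held 348.1, 366.0, 271.9 and 267.8 CPM, and those with agrin 337.1, 308.2, 299.9 and 280.9 CPM. In each of these treatments replicates 1 and 2 were above replicates 3 and 4, while the treatments overlapped. The same order held with agrin and 13-3B5xb12, at 366.7, 384.3, 275.7 and 244.2 CPM, and with agrin and 11-3F6xb12, at 339.7, 367.1, 311.2 and 331.1 CPM.

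Cdkn1c, the maternally expressed cyclin-dependent kinase inhibitor p57 that helps myoblasts leave the cell cycle, had between 16 and 102 counts per library. Its control libraries stood at 3.91, 2.83, 1.58 and 1.63 CPM. With 13-3B5 it stood at 2.83, 3.55, 0.702 and 1.11 CPM, and with agrin at 4.63, 2.16, 1.60 and 2.00 CPM. The lower values were again those of replicates 3 and 4. With agrin and 13-3B5xb12 the values were 3.74, 1.72, 1.36 and 1.88 CPM, the one treatment in which a replicate 4 exceeded a replicate 2. With agrin and 11-3F6xb12 they were 4.20, 3.16, 1.46 and 1.00 CPM. Cdkn1c shares 625 of its 2039 exon bases with the antisense gene Gm44732, which had 13 counts in all.

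Mest, a paternally expressed hydrolase of the growing mesoderm, had between 22 and 82 counts per library. Control libraries held 2.29, 2.74, 1.12 and 1.45 CPM, and those with 13-3B5 1.63, 3.73, 1.23 and 1.11 CPM. Those with agrin held 3.50, 2.11, 2.11 and 0.957 CPM, a wider range than in the control. With agrin and 13-3B5xb12 the values were 1.60, 2.15, 1.23 and 1.53 CPM, and with agrin and 11-3F6xb12 they were 2.61, 3.81, 2.55 and 1.96 CPM. The highest treatment mean, 2.73 ± 0.773 CPM (SD, n = 4), was that with 11-3F6xb12, and its range overlapped those of the other treatments. Mest shares 912 of 3945 exon bases with Copg2 on the opposite strand.

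**Figure D1:**
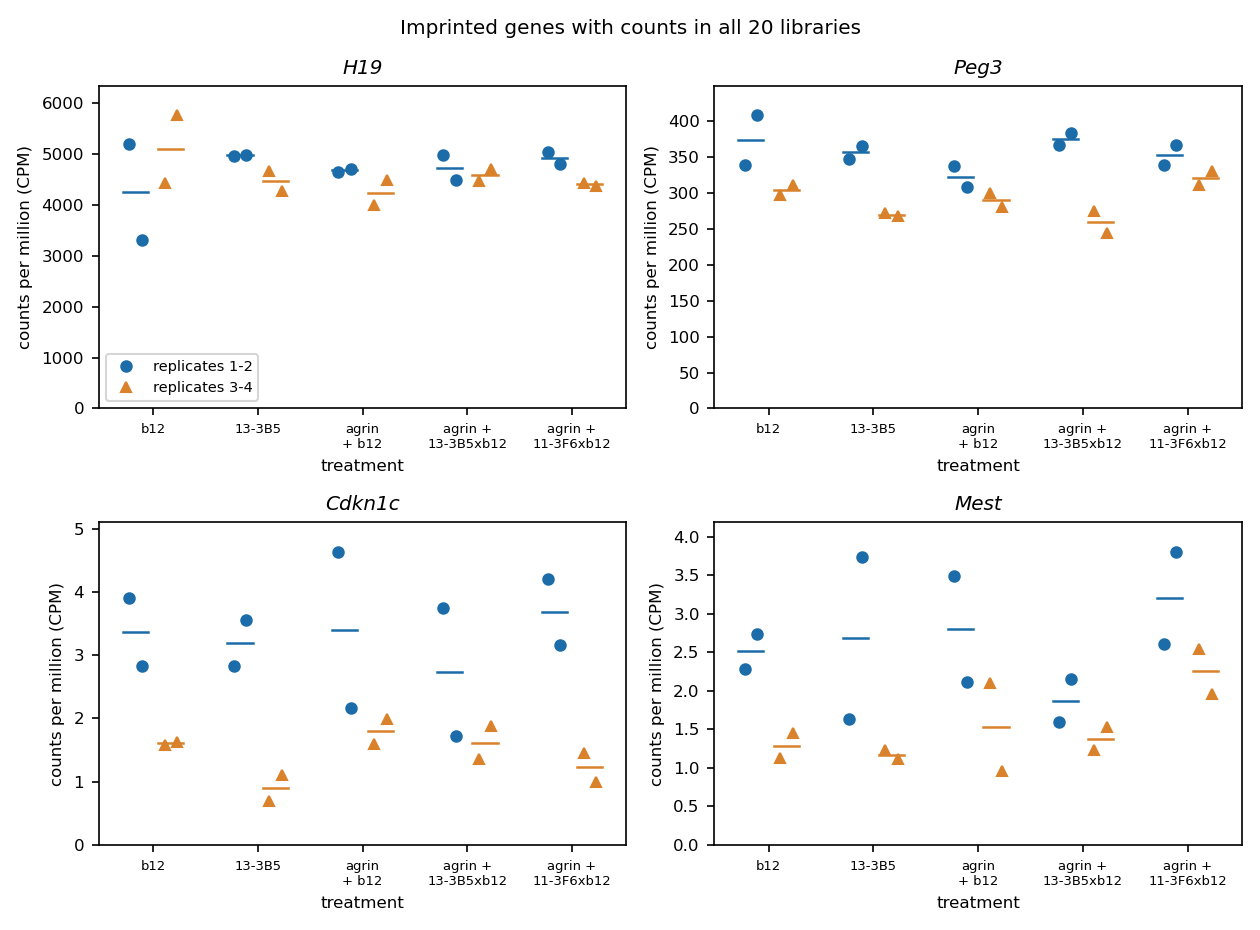
Level of H19, Peg3, Cdkn1c and Mest in every library, in CPM on axes starting at 0, by treatment, with circles for replicates 1 and 2, triangles for replicates 3 and 4, and lines at the mean of each pair. Peg3, Cdkn1c and Mest were lower in replicates 3 and 4 in all 5 treatments, and H19, between 3312 and 5758 CPM, was lower there in 4 of 5, all but the control.

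Grb10, an adaptor that inhibits insulin and IGF receptor signalling and is imprinted in opposite directions in brain and in other tissues, was close to the limit of detection. It had counts in 18 of 20 libraries and above 3 counts in 15. The control libraries held 3, 10, 8 and 22 counts and those with 13-3B5 9, 0, 6 and 23. With agrin there were 8, 2, 17 and 16 counts, a somewhat narrower spread than in the control. With agrin and 13-3B5xb12 there were 0, 12, 8 and 11, and with agrin and 11-3F6xb12 8, 2, 4 and 11. Summed over treatments, replicate 4 held 83 of the 180 counts.

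Meg3, a maternally expressed long noncoding RNA with tumour-suppressing activity, had counts in 9 of 20 libraries and above 3 counts in 6. The control libraries held 21, 0, 18 and 0 counts, and those with 13-3B5 0, 2, 13 and 0. With agrin there were 0, 0, 0 and 1. Counts came in some libraries of a treatment and not in others. With agrin and 13-3B5xb12 there were 8, 3, 6 and 0 counts, and with agrin and 11-3F6xb12 0, 0, 10 and 0. Replicate 3 held 47 of the 82 counts and replicate 1 held 29, in 4 and in 2 of their 5 libraries.

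Rian, the snoRNA host gene downstream of Meg3, had 5 counts in control replicate 3, 2 in agrin replicate 4, 1 in replicate 4 of agrin with 11-3F6xb12, and none elsewhere. Control replicate 3 and agrin replicate 4 were the libraries with counts of both Meg3 and Rian. Rtl1, the paternally expressed retrotransposon-derived gene between Meg3 and Rian, had counts in 2 libraries and at most 5. The genes flanking the domain varied in level: Ppp2r5c, a phosphatase subunit, averaged 119.1 CPM and Wars, a tRNA synthetase, 46.6 CPM. Lower among them were Wdr25 at 7.27 CPM and Evl at 5.11 CPM. Begain averaged 0.132 CPM, with counts in 11 of 20 libraries.

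**Figure D2:**
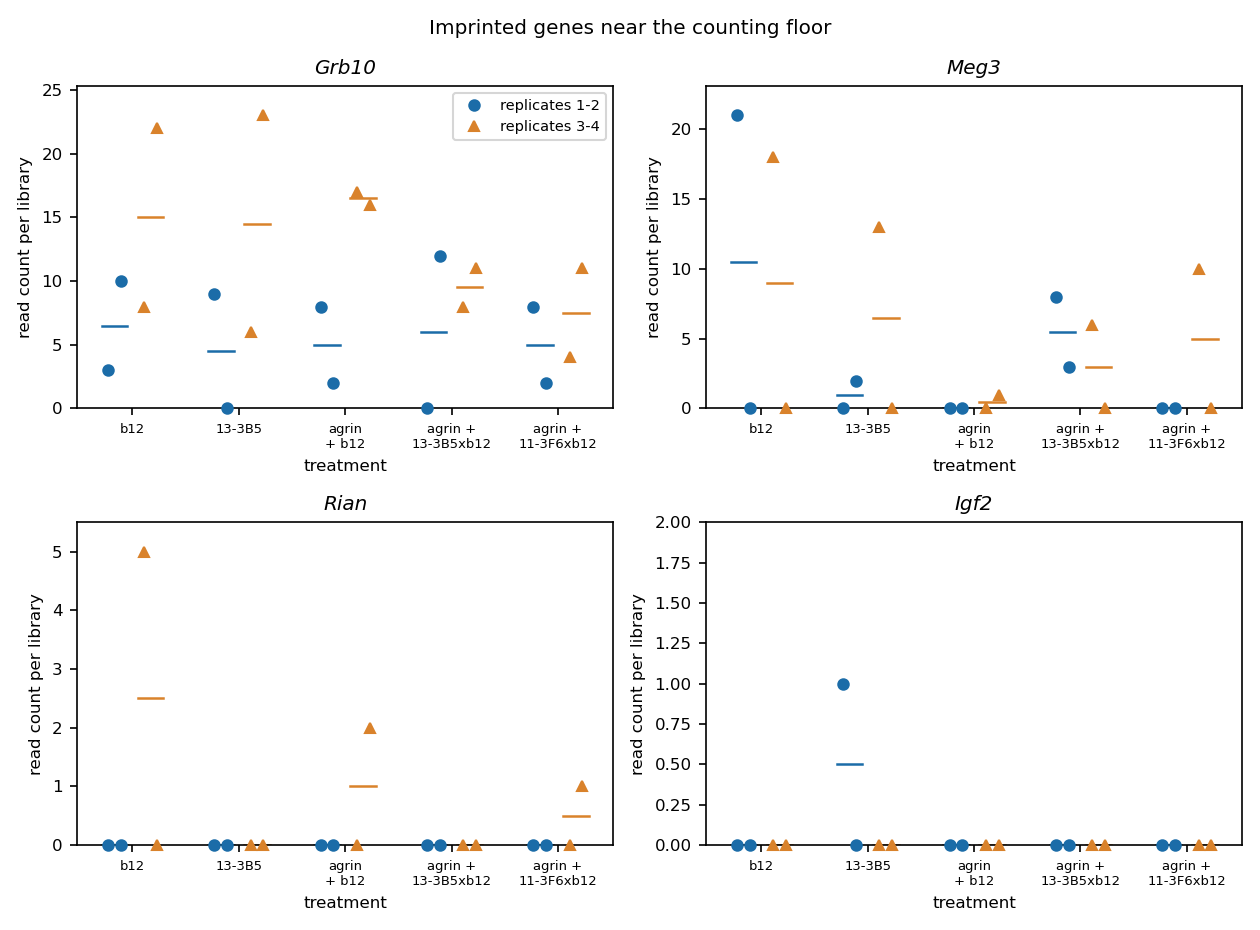
Read counts of Grb10, Meg3, Rian and Igf2 in every library by treatment, with circles for replicates 1 and 2, triangles for replicates 3 and 4, and lines at the mean of each pair. Meg3 reached 21 counts in one control library and 0 in another, and Igf2 had a single count in one library.

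Igf2, the paternally expressed growth factor IGF-II, had its 1 count in replicate 1 of the 13-3B5 treatment. The annotation limits what this number shows. In GENCODE M21, 3596 of the 5723 exon bases of Igf2 also belong to Gm49394, an overlapping gene on the same strand, and Gm49394 itself had 22 counts. One of its transcripts had 112 of 3708 bases outside Gm49394, and 2127 bases of the gene were outside it in all. The counting program named in the submitters' processing notes sets aside reads that overlap several genes in its usual modes, and the mode used here is not given in the sources used here. The table itself bears on it: of 765 annotated genes whose exon bases all lie in exons of other genes on the same strand, 1 had an entry (0.131%). Of 460 genes covered in that way by genes of the opposite strand and by none of the same strand, 172 had one (37.4%), and of 43640 genes that share no exon base, 18383 had one (42.1%). A low level of Igf2 RNA and reads lost to the shared exons therefore cannot be told apart. Meg3 shares few of its 18089 exon bases with same-strand genes, 97 at most with any of them, and 1228 with Gm26906 on the opposite strand. Igf2os, on the opposite strand to Igf2, averaged 0.359 CPM, and Ins2, the insulin gene upstream of Igf2, averaged 3.81 CPM.

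The first question was whether activation or inhibition of MuSK moved these genes. Of the 6 genes that passed the expression filter (H19, Peg3, Cdkn1c, Mest, Grb10 and Meg3), none passed an adjusted p-value of 0.05 in any of 8 treatment comparisons or in the test of any treatment difference, with edgeR's quasi-likelihood test. The same held for all 14605 genes tested, of which 0% were called, that is passed this threshold, in each of these comparisons. Without adjustment 1 of the 6 genes, Meg3, had a p-value under 0.05 in 1 comparison, and between 329 and 617 of all genes did. DESeq2 called none of the 6, also with 1 under 0.05 unadjusted, in agrin against control. Of all genes it called 2 between the inhibiting antibodies and none in the other treatment comparisons. With the replicate number as a block, still none of the 6 was called, against 0.0137%, 0.0205% and 0.0342% of all genes in the comparisons of agrin with 11-3F6xb12 to agrin, to control and to agrin with 13-3B5xb12, and 0.0137% in the test of any difference. The comparisons share treatment groups, so their values are not independent of each other.

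H19 had the narrowest range, with log2 fold changes between -0.07 and 0.08 over the 8 comparisons and a standard error of 0.11. Its smallest p-value was in 13-3B5 against agrin, a difference of 0.08 (adjusted p = 1.00, edgeR). Mean levels were 4671 ± 1057 CPM in the control, 4714 ± 335.5 with 13-3B5, 4459 ± 327.1 with agrin, 4661 ± 239.8 with added 13-3B5xb12 and 4660 ± 313.6 with added 11-3F6xb12 (SD, n = 4 each). In that order of means no treatment differed from its neighbours beyond the spread of its libraries. Peg3 ranged from -0.15, in agrin against control, to 0.14 on the log2 scale, with a standard error of 0.13 for the former (adjusted p = 1.00, edgeR).

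Cdkn1c had its smallest p-value in 13-3B5 against agrin, at -0.34 ± 0.50 (log2, SE; adjusted p = 1.00, edgeR). Mest had it between the inhibiting antibodies, 0.75 ± 0.40 higher with 11-3F6xb12 than with 13-3B5xb12 (unadjusted p = 0.0715 and adjusted p = 0.992, edgeR). Grb10 had it in agrin with 11-3F6xb12 against control, at -0.82 ± 0.92 (adjusted p = 1.00, edgeR). Without control replicate 4 the difference of Grb10 was -0.26, and over all single-library removals it was between -1.16 and -0.26. No adjusted p-value of these 3 genes was under 0.05. The treatment fits held no term for the replicate number, so differences between replicate numbers are part of these standard errors. The test of any treatment difference gave unadjusted p-values of 0.952 for H19, 0.749 for Peg3, 0.955 for Cdkn1c, 0.424 for Mest, 0.915 for Grb10 and 0.114 for Meg3 (edgeR).

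Meg3 had the largest fitted difference, -4.86 ± 1.78 in agrin against control (unadjusted p = 0.0107 and adjusted p = 1.00, edgeR). It rests on 1 count in the 4 agrin libraries against 21 and 18 in control replicates 1 and 3 and none in control replicates 2 and 4. A fitted fold change against counts this close to 0 is no bound. Control replicates 2 and 4 thus held no more counts than the agrin libraries.

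**Figure D3:**
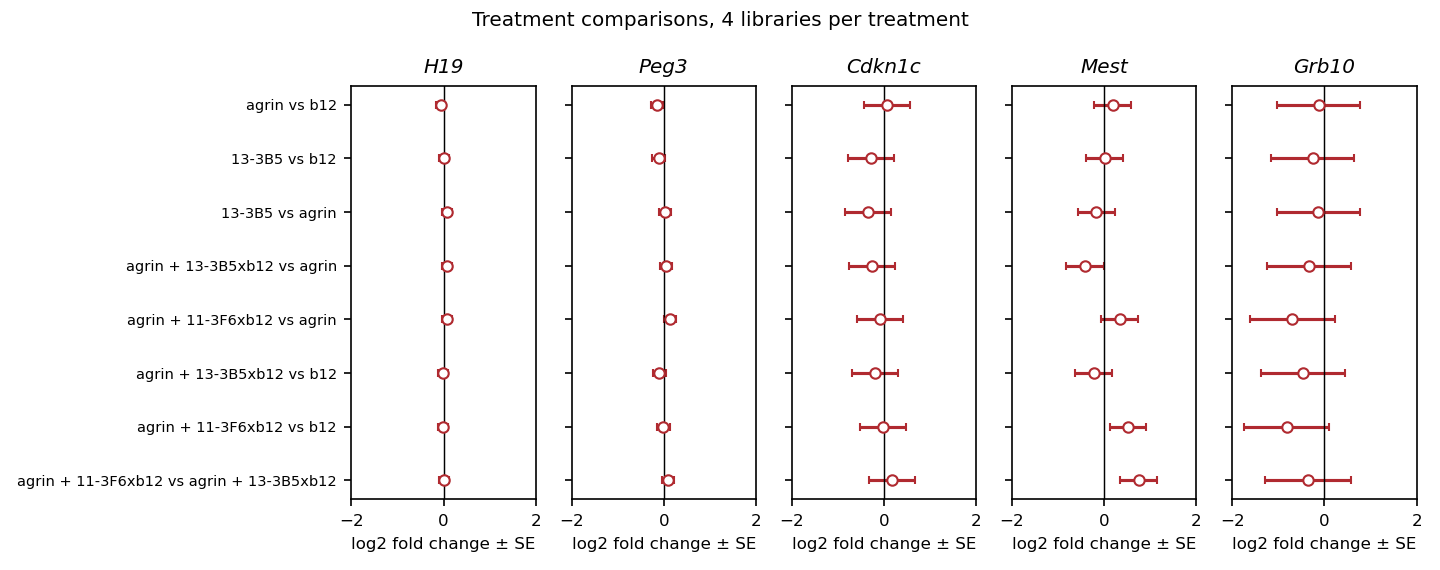
Fitted log2 fold changes with standard errors for H19, Peg3, Cdkn1c, Mest and Grb10 in the 8 comparisons between treatments, each with 4 libraries per treatment. All symbols are open because no adjusted p-value was under 0.05, and the bars widen from H19, with a standard error of 0.11, to Grb10.

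The second question was how the genes compared between replicates 1 and 2 and replicates 3 and 4. This split was chosen because earlier results of these libraries had shown it, so its p-values describe the libraries and are not independent evidence. The fit also treats all libraries as independent. If libraries with one replicate number are not, these p-values are too small. Of the 6 genes tested, 3 were lower in replicates 3 and 4, Cdkn1c, Mest and Peg3, and none was higher (edgeR, treatment as covariate). Over all genes 13.1% were called, 7.13% lower and 5.93% higher in replicates 3 and 4. The median log2 difference of the 6 genes was -0.18, against 0.0064 over all genes tested. In bulk RNA, fewer cells of a type and less RNA per cell cannot be told apart.

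Cdkn1c differed most. It had a lowest, median and highest level of 1.72, 3.36 and 4.63 CPM in the 10 libraries of replicates 1 and 2, and of 0.702, 1.52 and 2.00 CPM in the other 10. The ranges overlapped, and all 10 libraries of replicates 3 and 4 lay below the median of replicates 1 and 2. The log2 difference was -1.21 ± 0.21 (SE; adjusted p = 5.51e-05, edgeR), lower in 5 of 5 treatments. It was between -1.45 and -0.94 when any library or replicate number was left out.

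Mest went from 1.60, 2.45 and 3.81 CPM to 0.957, 1.34 and 2.55 CPM, lowest, median and highest. Its log2 difference was -0.79 ± 0.21 (adjusted p = 0.00878, edgeR), also lower in 5 of 5 treatments. The call was lost without the libraries numbered 2, at -0.60 (adjusted p = 0.190), and without those numbered 4, at -0.70 (adjusted p = 0.113).

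Peg3 went from 308.2, 357.0 and 408.3 CPM to 244.2, 289.5 and 331.1 CPM. The difference was smaller, -0.30 ± 0.05 on the log2 scale, and had the smallest p-value of the 3 (adjusted p = 8.73e-06, edgeR). Peg3 had at least 5599 counts in a library, where Cdkn1c had at most 102 and Mest at most 82.

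H19 had 3312, 4881 and 5187 CPM in replicates 1 and 2 and 3989, 4453 and 5758 CPM in replicates 3 and 4. Its log2 difference was -0.05 ± 0.07 (adjusted p = 0.769, edgeR). It was lower in replicates 3 and 4 in 4 of 5 treatments, all but the control, and 9 of the 10 libraries of replicates 3 and 4 lay below the median of replicates 1 and 2. Control replicate 2, its lowest library, weighed on this: without it the difference was -0.11 (adjusted p = 0.0457). Grb10 was at 0.253 and 0.470 CPM in the median of replicates 1 and 2 and of replicates 3 and 4, with a difference of 1.02 ± 0.57 (adjusted p = 0.276, edgeR). This was between 0.47, without the libraries numbered 4, and 1.42 when libraries were left out. Meg3 differed by 0.86 ± 0.94 (adjusted p = 0.652, edgeR), by between 0.26 and 2.02 when libraries were left out, and by 1.44 with DESeq2. It was not called in any of these fits, and Rian and Igf2 were not tested. With the 3 libraries named above left out, the 3 calls and their directions held, at -1.21 for Cdkn1c, -0.91 for Mest and -0.29 for Peg3.

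Some marker levels differed between the replicate pairs too, where 13.1% of all genes were called and 7.13% were called lower. The 12 myotube markers summed to between 18020 and 20160 CPM in replicates 1 and 2 and to between 15700 and 18700 CPM in replicates 3 and 4, and 4 of them, Tnnt1, Ckm, Tnnt3 and Tnnc2, were lower. Of 10 markers of dividing or undifferentiated myoblasts, 2 were lower, Id3 and Ccnb1, with sums of 162.8 to 244.3 and of 136.1 to 246.7 CPM. Of 7 connective tissue markers tested, 3 were lower, Col1a1, Col3a1 and Lum, with sums over 8 markers of 5044 to 5643 and of 4399 to 5334 CPM. Nuclear-retained RNAs summed to 5701 to 9612 and to 5158 to 6467 CPM, and 1 of 8 tested, Neat1, was lower. No marker of these lists was called higher, and some had higher estimates. Myh8 of the myotube markers was at 0.21 on the log2 scale (adjusted p = 0.0529, edgeR). Myf5 of the myoblast markers was at 0.30 (adjusted p = 0.0595, edgeR), and Myog and Dcn were each at 0.08. No marker of these lists was at 0 in all libraries. Their part in the differences of Cdkn1c, Mest and Peg3 was not tested.

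In and around the H19-Igf2 domain, Nctc1 was lower in replicates 3 and 4, at -1.13 ± 0.19 on the log2 scale (adjusted p = 2.99e-05, edgeR). Nctc1 is a noncoding RNA downstream of H19 near the muscle enhancers of H19, and H19 was at -0.05. Nctc1 went from a median of 4.99 to 1.96 CPM. The flanking fast troponin genes Tnnt3 and Tnni2 were lower too, at -0.43 and -0.45. Lsp1, a leukocyte actin-binding protein gene, and Syt8, a synaptotagmin gene, also flanking, were higher, at 0.19 and 0.42. Mrpl23, a mitochondrial ribosomal protein gene next to H19, was at -0.08 (adjusted p = 0.567, edgeR).

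In the Kcnq1 domain, Cdkn1c stood apart in size from its neighbours. Kcnq1ot1, the paternally expressed noncoding RNA that silences Cdkn1c on its own chromosome, was at 0.01 ± 0.13 (adjusted p = 0.984, edgeR), with medians of 14.97 and 15.03 CPM. Tspan32 and Cd81, tetraspanin genes, were lower, at -0.26 and -0.11. Tssc4, Nap1l4 and Osbpl5 did not pass the test, at 0.10, -0.04 and -0.03.

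In the Peg3 domain, Zim1, a maternally expressed zinc finger gene, was lower with Peg3 and by more. It had 23.84, 25.41 and 39.28 CPM, lowest, median and highest, in replicates 1 and 2 and 14.07, 17.21 and 20.98 CPM in replicates 3 and 4. These ranges did not overlap, which held for 1.68% of all genes tested. The log2 difference of Zim1 was -0.63 ± 0.08 (adjusted p = 4.16e-07, edgeR). Usp29, the paternally expressed deubiquitinase gene that shares the promoter region of Peg3, was at 0.19 ± 0.26 (adjusted p = 0.745, edgeR). Next to Mest, Copg2, a coat protein gene whose end overlaps that of Mest, was at -0.06 ± 0.05 (adjusted p = 0.490, edgeR). Next to Grb10, Cobl, an actin nucleator, was higher by 0.28. Of the genes flanking Meg3, Wars was higher by 0.27 and none of the 7 tested was called lower.

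**Figure D4:**
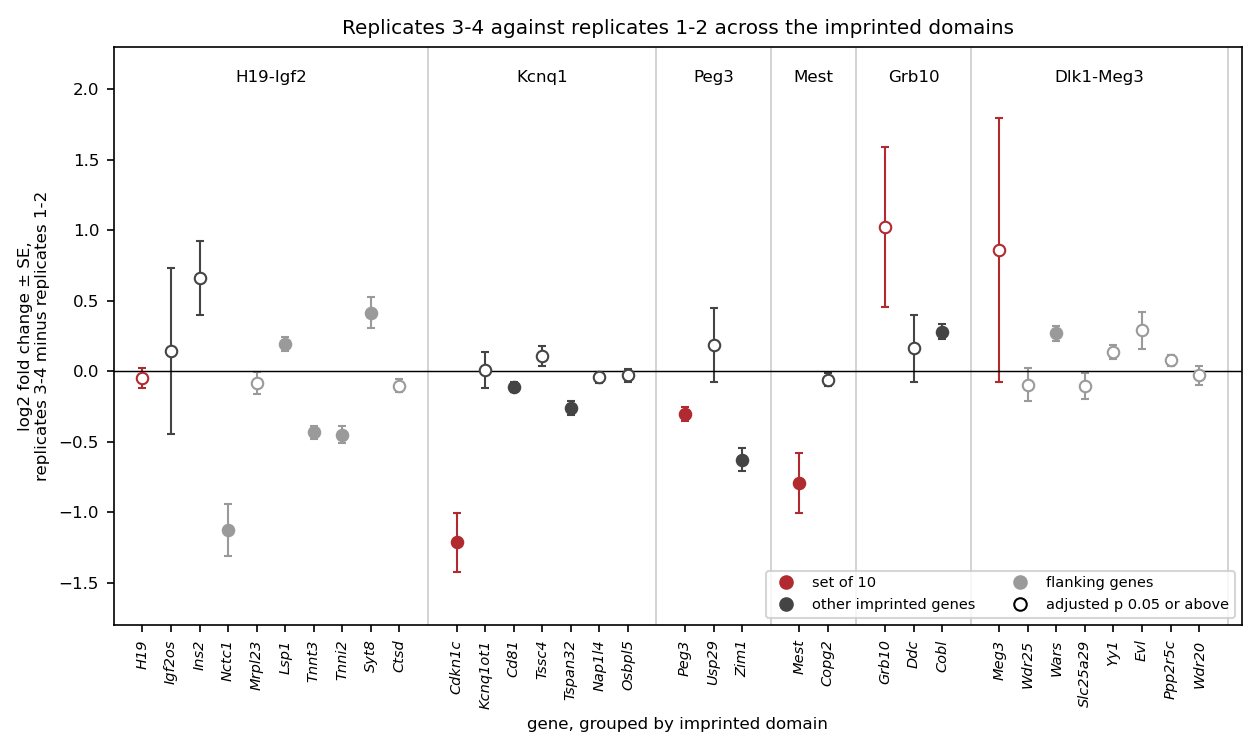
Log2 fold change with standard error, replicates 3 and 4 against 1 and 2, for tested genes in and next to 6 imprinted domains. Red marks the 6 tested genes of the set, dark grey other imprinted genes and light grey flanking genes. Filled symbols have an adjusted p-value under 0.05, and Cdkn1c at -1.21 lies below every neighbour in its domain.

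Ratios of 2 genes within a library do not depend on scaling between libraries. Of the 5 ratios planned, Cdkn1c over H19 could be computed. H19 over Igf2, Meg3 over Dlk1, Rian over Meg3 and Mirg over Rian could not, since a partner lacked an entry or had 0 counts in most libraries. A further 17 ratios were added after this was seen. They cover H19, Cdkn1c, Peg3 and Mest, the tested genes of the set with counts in all libraries. Each was set against the listed genes in or next to its domain that also had counts in all libraries. P-values are from exact two-sided permutations of the labels (replicates 1 and 2 or 3 and 4) within treatments, with 7776 arrangements and a smallest possible p of 0.0002572, adjusted over the 18 ratios. Labels were permuted in each treatment separately, as if libraries with one replicate number were independent. If they are not, these p-values are too small.

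The log2 ratio of Cdkn1c to H19 had a lowest, median and highest value of -11.35, -10.41 and -9.97 in replicates 1 and 2 and of -12.70, -11.63 and -11.13 in replicates 3 and 4. The means differed by -1.15 (exact permutation p = 0.0007716, adjusted 0.001543), with lower values in 5 of 5 treatments and overlapping ranges. Against all 6 neighbours in its own domain Cdkn1c was lower as well, by between -1.30, against Tssc4, and -0.94, against Tspan32. Against Kcnq1ot1 the difference was -1.21 (exact permutation, adjusted p = 0.002104). All ratios of Cdkn1c share its counts, so they are not independent of each other or of its own difference. Between treatments the ratio to H19 passed the test in 0 of 8 comparisons, with a smallest unadjusted exact p of 0.4, where 4 against 4 libraries can reach 0.02857. That test does not take the shift between the replicate pairs into account. Paired by replicate number, 13-3B5 differed from control by -0.51 and agrin with 13-3B5xb12 from agrin by -0.31. Both had a paired exact permutation p of 0.125, the smallest that 4 pairs can reach. In the other comparisons the paired p was 0.25 or above.

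The log2 ratio of Mest to Copg2 differed by -0.72 between replicates 3 and 4 and replicates 1 and 2 (exact permutation, adjusted p = 0.001543), with lower values in 5 of 5 treatments. That of Peg3 to Zim1 was higher by 0.32 (exact permutation, adjusted p = 0.001543), Zim1 being lower by more. H19 was higher by 1.12 relative to Nctc1, by 0.39 relative to Tnnt3 and by 0.40 relative to Tnni2, each with an adjusted p of 0.001543 by exact permutation. Relative to Mrpl23 and Ctsd, a lysosomal protease gene, H19 differed by 0.03 and 0.06 (exact permutation, adjusted p = 0.782 and 0.420).

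In 4 further ratios the call was lost when single libraries were left out. H19 over Ins2 differed by -0.80, Peg3 over Usp29 by -0.56, H19 over Syt8 by -0.47 and H19 over Lsp1 by -0.24, with adjusted exact permutation p-values of 0.02407, 0.02517, 0.01687 and 0.01318. H19 over Lsp1 lost its call without control replicate 1 (-0.20) or 3 (-0.19), and H19 over Syt8 without control replicate 1 (-0.40). Peg3 over Usp29 lost it without agrin replicate 2 (-0.45) or 3 (-0.55), without replicate 1 (-0.39) or 4 (-0.45) of agrin with 13-3B5xb12, or without replicate 3 of agrin with 11-3F6xb12 (-0.52). H19 over Ins2 lost it without replicate 1 (-0.51), 3 (-0.75) or 4 (-0.84) of agrin with 13-3B5xb12, or without replicate 1 (-0.65) or 3 (-0.70) of agrin with 11-3F6xb12.

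**Figure D5:**
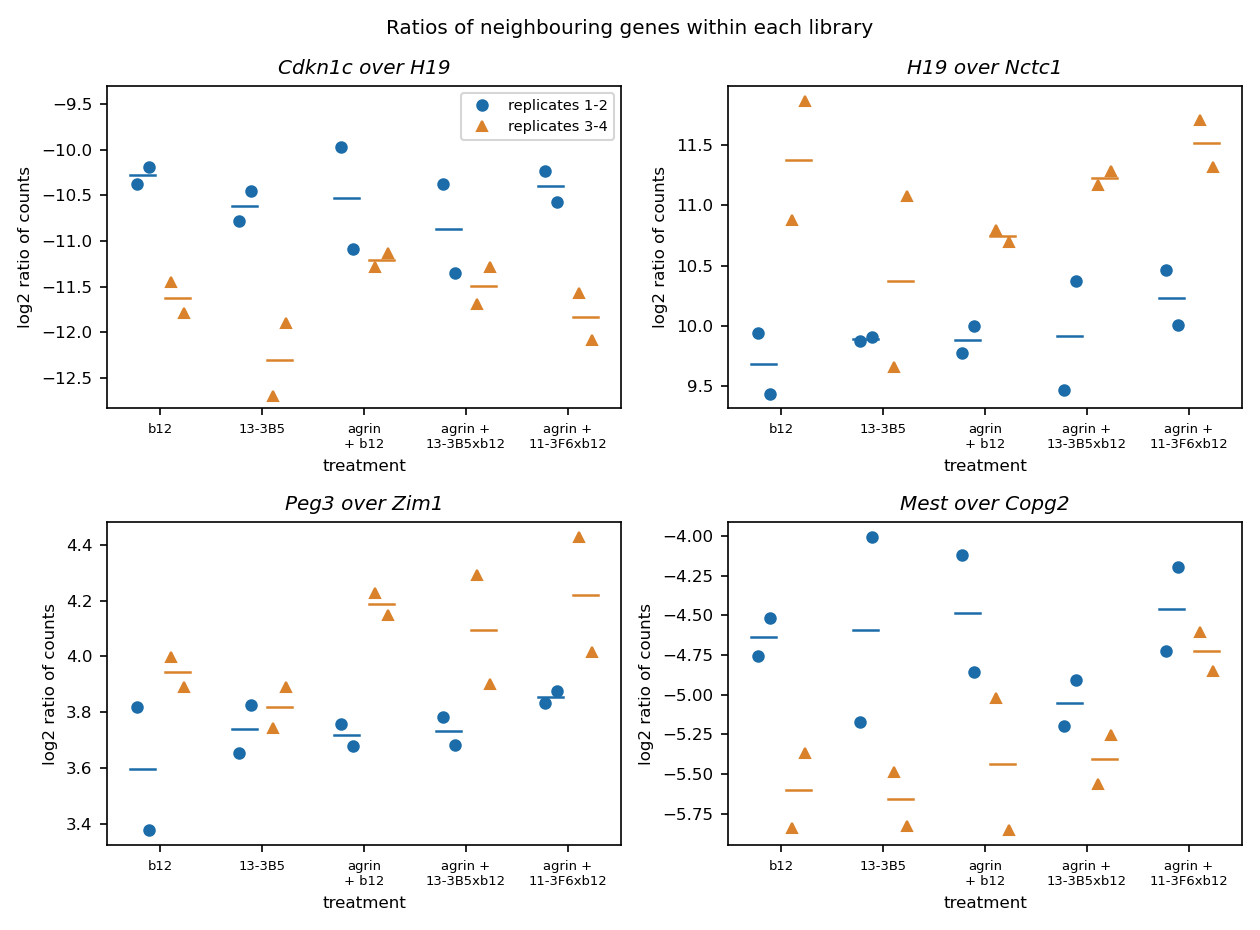
Log2 ratio of read counts of neighbouring genes in every library by treatment, with circles for replicates 1 and 2, triangles for replicates 3 and 4, and lines at the mean of each pair; the axes do not start at 0. Cdkn1c over H19 and Mest over Copg2 were lower in replicates 3 and 4 in all 5 treatments, and H19 over Nctc1 was higher.

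Cdkn1c and H19 were the only pair of the set on distal chromosome 7 with counts for a correlation, which was taken within replicates 1 and 2 and within replicates 3 and 4. In replicates 1 and 2, Pearson's r of log2 CPM was 0.32 and Spearman's rho 0.53 over 10 libraries (permutation p = 0.355 and 0.123). Without the 2 libraries farthest from the median of Cdkn1c, r was 0.47. In replicates 3 and 4, r was 0.11 and rho 0.35 (permutation p = 0.739 and 0.330), with r of 0.25 without the 2 farthest. After adjustment over these 4 values the smallest p was 0.473, so no relation was detectable with 10 libraries.

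Of 71 other imprinted genes listed, 55 had an entry and 41 were tested. None was called in a treatment comparison (edgeR), with at most 2 under an unadjusted p of 0.05 in any. Between the replicate pairs 9 were called, 6 lower and 3 higher in replicates 3 and 4, with a median of -0.06, where 13.1% of all genes were called, 7.13% lower and 5.93% higher. The lower genes were Zim1, Igf2r, Tspan32, Casd1, Ube3a and Cd81. Igf2r, the maternally expressed receptor that takes IGF-II to the lysosome, had 39.19, 44.15 and 53.40 CPM against 29.32, 32.67 and 35.45 CPM, lowest, median and highest, with no overlap. Ranges without overlap held for 1.68% of all genes tested. The log2 difference of Igf2r was -0.47 ± 0.06 (adjusted p = 1.5e-07, edgeR). Casd1, a sialic acid acetyltransferase gene, was at -0.30 and Ube3a, a ubiquitin ligase gene, at -0.15. The higher genes were H13, a signal peptide peptidase gene, at 0.30, Cobl, and Gnas, the stimulatory G protein subunit gene, at 0.12.

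Of 15 factors that keep or read imprints, all tested, 3 were higher and 1 lower in replicates 3 and 4. Over all genes tested 13.1% were called, 5.93% higher and 7.13% lower. Zfp57, which binds methylated imprinting control regions, was higher by 0.38 (adjusted p = 0.0117, edgeR), with medians of 9.35 and 12.40 CPM. Trim28, the corepressor it recruits, was higher by 0.21 (adjusted p = 0.000187, edgeR), and Setdb1, a histone methyltransferase in the same complex, by 0.18. Dnmt3a, a DNA methyltransferase, was lower, at -0.30. Dnmt1, the maintenance methyltransferase, and Ctcf, the insulator protein that binds the H19-Igf2 control region, did not pass the test, at 0.02 and 0.12. DNA methylation was not measured in these samples.

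Genes with the most similar pattern over the 20 libraries were looked up for H19 and Peg3, the genes of the set above 8 CPM, with log2 CPM centred within replicates 1 and 2 and within replicates 3 and 4. For H19 they were Rp9, Mak16 and Tpm3, with Pearson's r of 0.89, 0.86 and 0.85. These r include the lowest and highest H19 libraries, control replicate 2 (3312 CPM) and control replicate 4 (5758 CPM). They were not computed without them. For Peg3 they were Igfbp5, which encodes an IGF-binding protein, Nfatc3 and Gm38534, with r of 0.85, 0.83 and 0.79. These are the highest of 8814 genes compared, whose median r was 0.05 for H19 and -0.02 for Peg3, and libraries share depth and scaling.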

How the data were processed

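Total RNA of 20 libraries was sequenced as paired ends after ribosomal RNA removal with a stranded kit, per the labels' protocols. The authors deposited one table of whole-number read counts per gene, not normalized. Trim Galore 0.6.6, cutadapt 2.10, STAR 2.7.6a, HTSeq 0.12.4, DESeq2 1.32.0 and the GRCm38 build are named in the submitters' processing notes, and the counting mode and strand setting are not given in the sources used here. Of 26722 gene IDs, 26667 were found in GENCODE M21, from which positions and exon overlaps were taken.

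Tests used edgeR 4.0.16 under R 4.3.3. The filterByExpr function (minimum count 10, minimum total 15) kept 14605 genes, including 6 of the set. Libraries were scaled by TMM, and a robust quasi-likelihood model with treatment as factor was fitted to all 20 libraries (15 residual degrees of freedom). A second model held treatment and the replicate pair (1 and 2, or 3 and 4). P-values were two-sided and adjusted by the Benjamini-Hochberg method over all genes tested, with a threshold of 0.05. The scripts were tested on simulated data. In the chi-square comparison of counts, libraries of a treatment differed by at least 5.17 per gene, so no library was counted as a repeat of another.

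The pairing by replicate number comes from the titles. Deviations of same-numbered libraries correlated between 0.0082 and 0.384 over 11149 genes with a mean log2 CPM above 1, and every pair was above 0.1 in 4 of 8 comparisons. Over all genes tested this held in 0 of 8. The deviations also carry the difference between replicates 1 and 2 and replicates 3 and 4, and differently numbered libraries were not compared. These correlations therefore cannot show whether libraries are paired by number. The genes of the set and the other lists were chosen with earlier results of these data known. All genes of the set are named. From each other list, up to 6 genes with an adjusted p-value under 0.05 are named, and otherwise the 2 most abundant. Other genes in or next to the domains, and called imprinted genes beyond those 6, were named after their values were seen. Alternatives were the replicate block, the replicate pair as covariate, DESeq2 size factors, the test of DESeq2 1.42.0, no filter or a mean count of at least 10, removal of mitochondrial genes, fits of only the 2 groups compared, 0.5 added to the counts of a ratio, and removal of each library. Removal of each replicate number or of 3 libraries, and 17 of the 18 ratios, were chosen after seeing the data.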

Additional observations from a re-analysis of the deposited data

Results flagged for a closer look

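In 3 of 30 groups of 4 libraries, 1 library lay far from the others, where chance gives about 1 in 20 such groups, or 1.5 of 30, for values without ties. All 3 were groups of Meg3, a gene near the limit of detection. With 13-3B5, replicate 3 held 0.570 CPM and the other libraries between 0 and 0.091 CPM. With agrin, replicate 4 held 0.0416 CPM, a single count, and the others none. With agrin and 11-3F6xb12, replicate 3 held 0.455 CPM and the others none. Where the other 3 libraries are at 0, any count sets the library apart by construction, and the rate of 1 in 20 does not apply.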

How the results depend on the processing

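Under every alternative run, none of the 6 tested genes was called in a treatment comparison. Of all genes, 2 to 27 were called per comparison and 50 in the test of any difference without a filter, and up to 10 with the replicate pair as covariate. With the replicate block the count stayed at 0 in the 8 comparisons and in the test of any treatment difference, while 2, 3 and 5 of all genes were called in the 3 comparisons of 11-3F6xb12, against agrin, control and 13-3B5xb12. No replicate block could be fitted for replicates 3 and 4 against 1 and 2, which the replicate number determines. In that comparison 3 genes were called under all alternatives that kept every library, and 2 to 4 when a library or a replicate number was left out. Of all genes, 1045, without replicate 3, to 2101, without replicate 1 of agrin with 13-3B5xb12, were then called, 2571 without the 3 libraries named above, and 2184 with DESeq2. In those leave-outs H19 ranged from -0.126 to 0.031, turning positive without replicate 1 or 3, Mest from -0.94 to -0.60 and Peg3 from -0.35 to -0.27. The ratio of Cdkn1c to H19 differed there by -1.26 to -1.04, and H19 over Mrpl23 by -0.063 to 0.125, negative without control replicate 4 or without replicate 2 of agrin with 13-3B5xb12. Cdkn1c in 13-3B5 against agrin ranged from -0.75 to 0.092, positive without agrin replicate 1. The cause of these changes of sign was not tested. Ratios and correlations with Igf2, Dlk1, Rian or Mirg were not run. Depth limits the scarce genes: Meg3, Rian, Igf2 and Grb10 lay near or under the limit of 3 counts in many libraries.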
